A study of Mus musculus with 50 samples.

Results

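Transcripts of the translation machinery were followed in the testis and the spinal cord of wobbler mice. They encode the proteins that initiate and elongate translation and the cytosolic aminoacyl-tRNA synthetases that charge tRNAs. No protein was measured. Members were taken by gene symbol, as every probe named Eif or Eef followed by a digit and every probe named for a cytosolic synthetase (1 or 2 letters and "ars", with or without a final 1, and Eprs). This gave 60 of the 9930 named genes on the array, with 86 of its 20355 probes. The 60 genes were 16 synthetases and 44 genes of factors, among which the symbols also bring in a kinase of eIF2, repressors of eIF4E and methyltransferases of eEF1A, and 17 of the 60 had several probes.

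Mutant mice with both copies of the wobbler allele (wr/wr), a recessive defect of the vesicle-tethering protein Vps54, were compared with wild-type (wt) mice on 2-colour arrays, 50 in all. In the testis, each of 10 wr/wr mice was hybridised on 4 arrays against pooled wild-type testes. In the spinal cord, 3 wr/wr RNAs were hybridised on 10 arrays against pooled wild-type cords. Of these RNAs, pool1 and pool2 hold 4 mice each, and the last came from the single mouse 5995. A tag of the pool2 samples carries the name of pool1, but it lists other mice than those of pool1. The mice of the cord RNAs are also testis mice, and the labels give no ages. The sample labels list 10 wild-type animals in each reference pool.

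Each value is a deposited log2 ratio, centred on its array's median and averaged over the orientations with the wr/wr RNA in Cy5 and in Cy3. The ratio was read as wr/wr over wild type, a direction that the channel order in the labels makes likely but that no source used here states. With the opposite reading every sign would turn. A ratio carries no level, so the organs were not checked against their own markers. The wild type of each organ is a single pool, so no test below holds the spread among wild-type mice. In such bulk tissue, fewer cells of a type and less RNA per cell cannot be told apart.

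In initiation, eIF2 carries the initiator tRNA to the small ribosomal subunit, eIF3 holds the complex together, and the eIF4 factors bind the cap and unwind the mRNA leader. In elongation, eEF1A delivers charged tRNAs and eEF2 moves the ribosome along. Control of translation is prominent in the testis, where haploid germ cells store mRNAs and translate them later, and mutations in several synthetase genes cause motor nerve disease in people and mice.

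Part of this machinery can come under stress control, and letters linked to that control are shown first. They lay near the start of some of the synthetase genes searched and not of others. ATF4, the transcription factor of the integrated stress response, binds with C/EBP partners at sites that can read TGATGCAA, and synthetase genes are among its known targets. Windows from 250 bases before to 50 bases after the gene start (RefSeq, GRCm38.p6) were held for 42 of the 60 genes, 10 of them synthetases. TGATGCAA, searched on both strands, lay in 4 of the 42 windows and all 4 were synthetases, against 1.03% of the windows of all 27025 genes. The windows around the matches, on the strand of the gene, are given with the match in capitals, which reads TTGCATCA where it lies on the other strand.

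Aars (chr8:111033690-111033777, plus strand, match at -112 to -105 from the start): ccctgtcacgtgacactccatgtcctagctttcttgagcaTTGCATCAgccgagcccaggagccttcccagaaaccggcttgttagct
Iars (chr13:49682097-49682144, plus strand, match at bases 8 to 15 of the transcript): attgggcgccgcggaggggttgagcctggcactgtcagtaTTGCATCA
Tars (chr15:11399644-11399713, minus strand, match at -15 to -8 from the start): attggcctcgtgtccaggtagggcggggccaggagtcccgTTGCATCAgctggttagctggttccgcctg
Yars (chr4:129189866-129189917, plus strand, match at bases 4 to 11 of the transcript): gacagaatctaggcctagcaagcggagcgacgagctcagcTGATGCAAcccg

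These letters are a description and not a measured site. Of the 4 genes, Aars was called higher in the testis, while Iars, both Tars probes and Yars were not called, as described with the synthetases below. The cAMP-response letters TGACGTCA were searched likewise and lay in 1 of the 42 windows, that of Eef2, against 2.03% of all genes. They do not overlap TGATGCAA. Among the 13 genes with a window that were called higher in the testis, 1 (Aars) held TGATGCAA.

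In the testis, transcripts of part of the translation machinery were slightly more abundant in the wr/wr mice than in the wild-type pool. Of the 86 probes, 64 were not called. Of the 86 probes tested, 19 were called higher and 3 lower (limma against 0, Benjamini-Hochberg adjusted p under 0.05 over all 20218 probes tested). Over all probes, 7.28% were called higher and 5.06% lower. The 19 probes stand for 18 genes, among them the helicases Eif4a1, Eif4a2 and Eif4a3, subunits of eIF3, the elongation factors Eef1a1, Eef1b2 and Eef1g, and the synthetases Aars, Hars and Qars. The 3 lower probes belong to 2 genes, the scaffold Eif4g3 and the joining factor Eif5b. All of these changes were small: the mean log2 ratios of the 19 ran between 0.12 and 0.29, a fold of 1.087 to 1.225 over wild type, and the lower ones corresponded to a wild type that was 1.089 to 1.17-fold higher.

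The median log2 ratio over the 86 probes was 0.080, against -0.0112 over all probes tested, and 59 probes (68.6%) lay above 0, against 46.6% of all. The members' median was above 0 in each mouse, from 0.0189 in mouse 5905 to 0.187 in mouse 5907. On the arrays with the wr/wr RNA in Cy3, the members' median was below 0 in mice 5905 (-0.011), 6065 (-0.0255) and 5997 (-0.0265). Among the 19 probes called higher, 9 were above 0 in every one of the 10 mice and the other 10 in all but 1. Such agreement follows in part from the call, which tests the same values against 0.

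**Figure D1:**
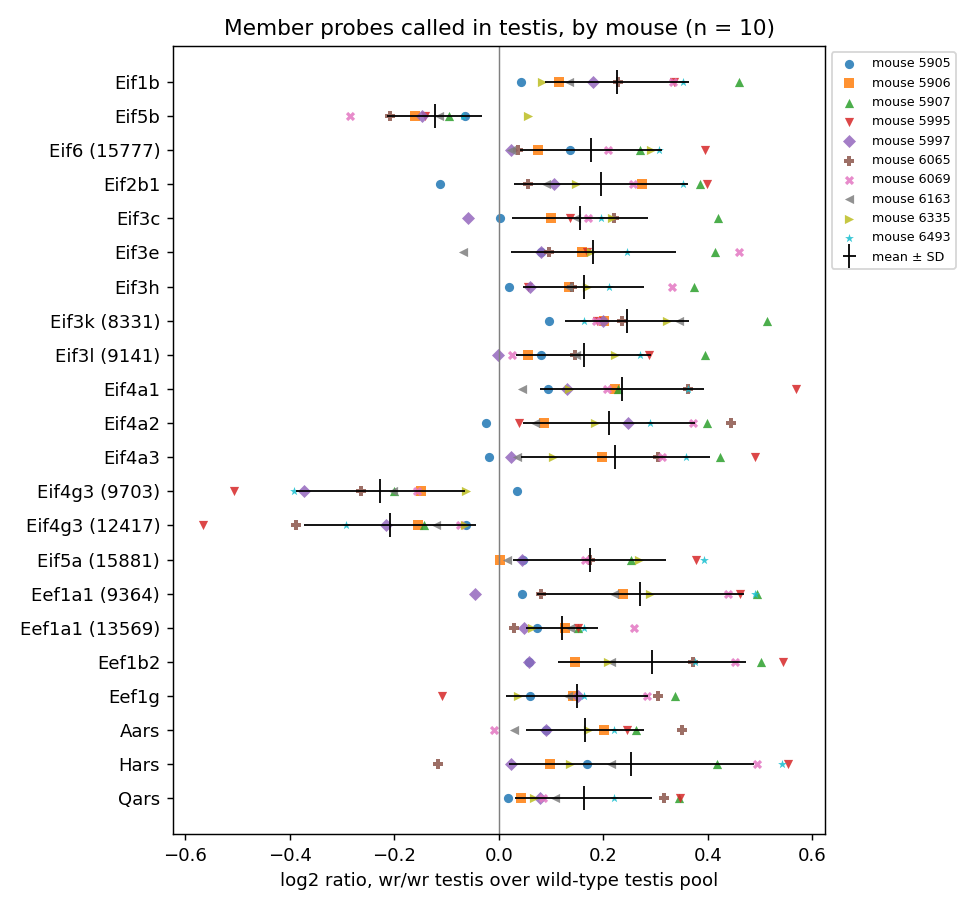
Log2 ratio of wr/wr testis over the wild-type testis pool (x axis) for the 22 member probes called in the testis (rows, ordered by role, with probe numbers where a gene has several). Coloured symbols are the 10 mice, and the black tick and bar are the mean ± SD. The 19 higher probes have means between 0.12 and 0.29, with at most 1 mouse below 0 in each row.

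The number of calls, of members as of all probes, rested on single mice. Without mouse 6493 only 3 member probes were called, Eif3k (probe 8331), Eef1b2 and Eif1b, and 3.71% of all probes, against 12.3% with all mice. It was 7 without mouse 5907 (6.13% of all probes), 8 without 6069 (4.93%), 10 without 6335 (6.09%), 13 without 5995 (7.38%) and 14 without 6163 (8.37%). The means themselves moved little when a mouse was left out. That of Eef1b2 stayed between 0.27 and 0.32, and that of Eif4a1 between 0.20 and 0.26.

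The dye orientations did not weigh equally. With the wr/wr RNA in Cy5 the members' median was 0.084, and with it in Cy3 0.0383. Of the 19 higher probes, 18 (94.7%) had a mean above 0 in both orientations, all but probe 9141 of Eif3l. The share was 95.2% over all probes called higher. But in 17 (89.5%) of the 19 the Cy5 mean was the higher one, against 73.6% of all probes called higher. From the Cy5 arrays alone, 21 probes were called higher and 0 lower, where 16.8% of all probes were called in either direction. From the Cy3 arrays alone 3 were called higher and 4 lower, where 6.65% of all were called. The Cy5 and Cy3 arrays correlated below 0 across all probes in mice 5905, 5997 and 6065. Without these 3 mice 19 member probes were called in total, and 13.5% of all probes.

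**Figure D2:**
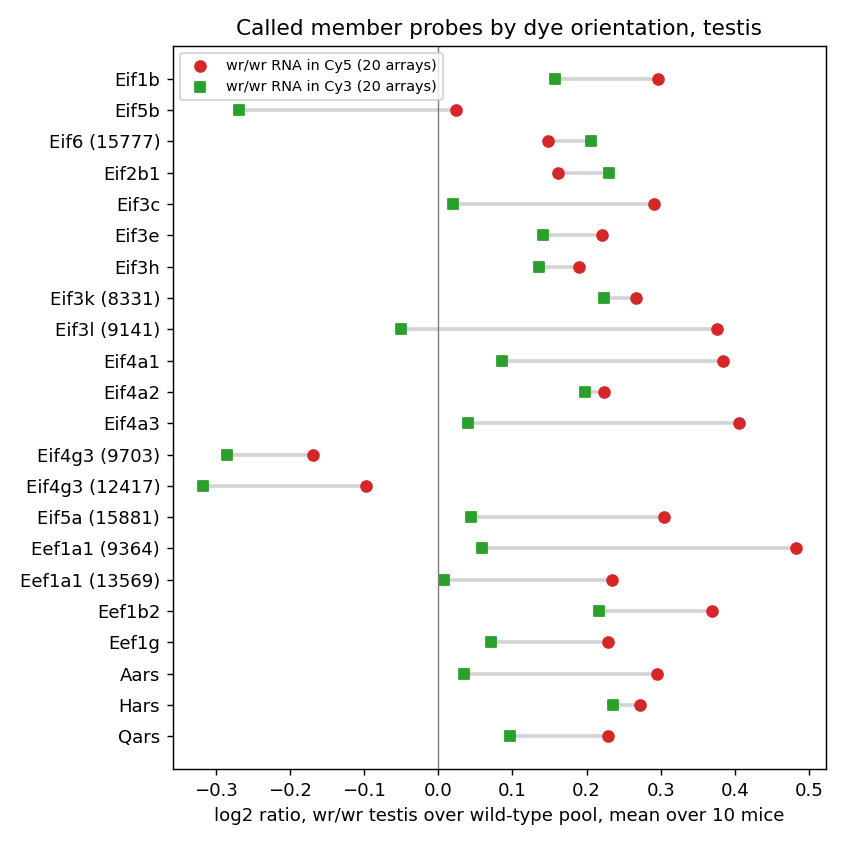
Mean log2 ratio over the 10 testis mice (x axis) of the same 22 probes, from the arrays with wr/wr RNA in Cy5 (circles) and from those with wr/wr RNA in Cy3 (squares). The Cy5 mean lies to the right in 17 of the 19 higher probes, by the most for Eif3l, Eef1a1 and Eif4a3, while Eif3k, Eif4a2 and Hars nearly coincide.

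Markers of testis cell types shifted in the same samples. The median log2 ratio was 0.39 over 7 Sertoli probes, of which 4 were called higher, and -0.21 over 6 Leydig probes, of which 3 were called lower. It was -0.21 over 4 macrophage probes (3 lower), -0.19 over 3 spermatogonial probes (0 called), 0.13 over 3 meiotic probes (1 higher), 0.046 over 6 round spermatid probes (1 lower) and 0.11 over 7 elongating spermatid probes (0 called). Their part in the members' ratios was not tested.

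Among the factors for start codon choice and subunit joining, 2 of 8 probes were called higher and 1 lower, with a median log2 ratio of 0.14. Eif1b, a relative of the factor that guards start codon selection, ranged from 0.043 to 0.46 with a median of 0.21. All 10 mice lay above 0, with a mean of 0.23 ± 0.14 (SD, n = 10, limma adjusted p = 0.0174). Eif6, which keeps the ribosomal subunits apart, had 1 of its 2 probes called, although both gave nearly the same mean: probe 15777 was at 0.18 ± 0.14 (limma adjusted p = 0.0299) and probe 6765 at 0.18 ± 0.20 (limma adjusted p = 0.0734). Eif5b, the GTPase that joins the subunits, fell. Its values ran from -0.28 to 0.057 with a median of -0.13, below 0 in 9 of 10 mice, and its mean was -0.12 ± 0.091 (limma adjusted p = 0.0391). The fall came from the Cy3 arrays, with a mean of -0.27 there and of 0.0236 on the Cy5 arrays. The GTPase activator Eif5 was at 0.045 and 0.30 on its 2 probes, the higher of them pulled by a value of 1.40 in mouse 5906, and neither was called.

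In the group of eIF2, its exchange factor eIF2B and the separate factors Eif2a and Eif2d, 1 of 8 probes was called higher. This was Eif2b1, the alpha subunit of eIF2B, with values from -0.11 to 0.40 and a median of 0.20, above 0 in 9 of 10 mice (mean 0.20 ± 0.17, limma adjusted p = 0.0356). Its Cy5 and Cy3 means were 0.16 and 0.23. The other eIF2B subunits were not called, and they ran from -0.0218 for Eif2b3 to 0.29 ± 0.37 for the catalytic subunit Eif2b5 (limma adjusted p = 0.0928). Eif2s3x, the X-linked gamma subunit of eIF2, was at -0.0435 ± 0.15. Eif2a had values in 8 mice that spread from -2.59 to 3.01, with a mean of 0.12 ± 1.85. Of the eIF2 kinases the members hold Eif2ak2 (PKR), which double-stranded RNA activates. Its 2 probes had medians of -0.0375 and -0.0745 over the mice but means of -0.31 ± 0.89 and -0.47 ± 1.33, and neither was called.

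The eIF3 complex had 5 of 14 probes called higher, 0 lower, 13 above 0 and a median log2 ratio of 0.16. Eif3k, a small peripheral subunit, was the member with the smallest p: on probe 8331 its values ran from 0.096 to 0.51 with a median of 0.20, above 0 in 10 of 10 mice, and its mean was 0.25 ± 0.12 (limma adjusted p = 0.0114). This probe was called in each of the 18 alternatives that fit single probes, with Cy5 and Cy3 means of 0.27 and 0.22. Its other probe, 6956, read -0.44 ± 1.36 because mouse 6335 stood at -4.23, and had a median of -0.0660. Averaged over both probes, Eif3k was not called and stood at -0.096 (limma adjusted p = 0.7644). Eif3e was at 0.18 ± 0.16, Eif3h at 0.16 ± 0.12 and Eif3c, of the core, at 0.16 ± 0.13. Eif3h was above 0 in 10 of 10 mice, the other 2 in 9. For Eif3l, probe 9141 was called at 0.16 ± 0.13 (limma adjusted p = 0.0340) and probe 4827 was not at 0.14 ± 0.13 (limma adjusted p = 0.0565). The subunits Eif3b (0.18 ± 0.19) and Eif3f (0.17 ± 0.18) were at the same size and missed the threshold, with limma adjusted p-values of 0.0661 and 0.0637. Eif3a, the largest subunit, was at 0.079 and 0.0089 on its 2 probes.

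Within the eIF4 group 3 of 14 probes were called higher, all of helicases, and 2 lower, both among the 5 probes of the scaffold Eif4g3. Eif4a1, the main RNA helicase of initiation, ranged from 0.044 to 0.57 with a median of 0.21, above 0 in all 10 mice, and rose by a mean of 0.24 ± 0.16 (limma adjusted p = 0.0195). Its close relative Eif4a2 was at 0.21 ± 0.16 and Eif4a3, the helicase of the exon junction complex, at 0.22 ± 0.18, each above 0 in 9 mice. Eif4a2 was nearly the same in both dyes (0.22 in Cy5, 0.20 in Cy3), whereas Eif4a1 was at 0.38 in Cy5 and 0.086 in Cy3, and Eif4a3 at 0.41 and 0.0397. Cross-hybridisation between the transcripts of these related helicases was not tested.

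Eif4g3 links the cap-binding protein to eIF3, and 2 of its 5 probes fell. Probe 9703 ran from -0.51 to 0.034 with a median of -0.20, and its mean was -0.23 ± 0.16 (limma adjusted p = 0.0222). Probe 12417 ran from -0.57 to -0.0615, below 0 in all 10 mice, with a mean of -0.21 ± 0.16 (limma adjusted p = 0.0290). Both were below 0 in either dye. Probe 11352 was at -0.16 ± 0.18 and probe 12293 at 0.099 ± 0.18, uncalled, and probe 17476 at -0.31 ± 1.37 with mouse 5907 at -4.19. Averaged over its 5 probes the gene was not called. The relative Eif4g2 was at 0.0149 ± 0.075. The cap-binding protein Eif4e had 4 probes, at -0.070, 0.044, 0.074 and 0.10, none of them called. The eIF4E-binding repressors Eif4ebp1 (-0.00878 and -0.069 on 2 probes) and Eif4ebp3 (-0.065 ± 0.16) were not called either.

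**Figure D3:**
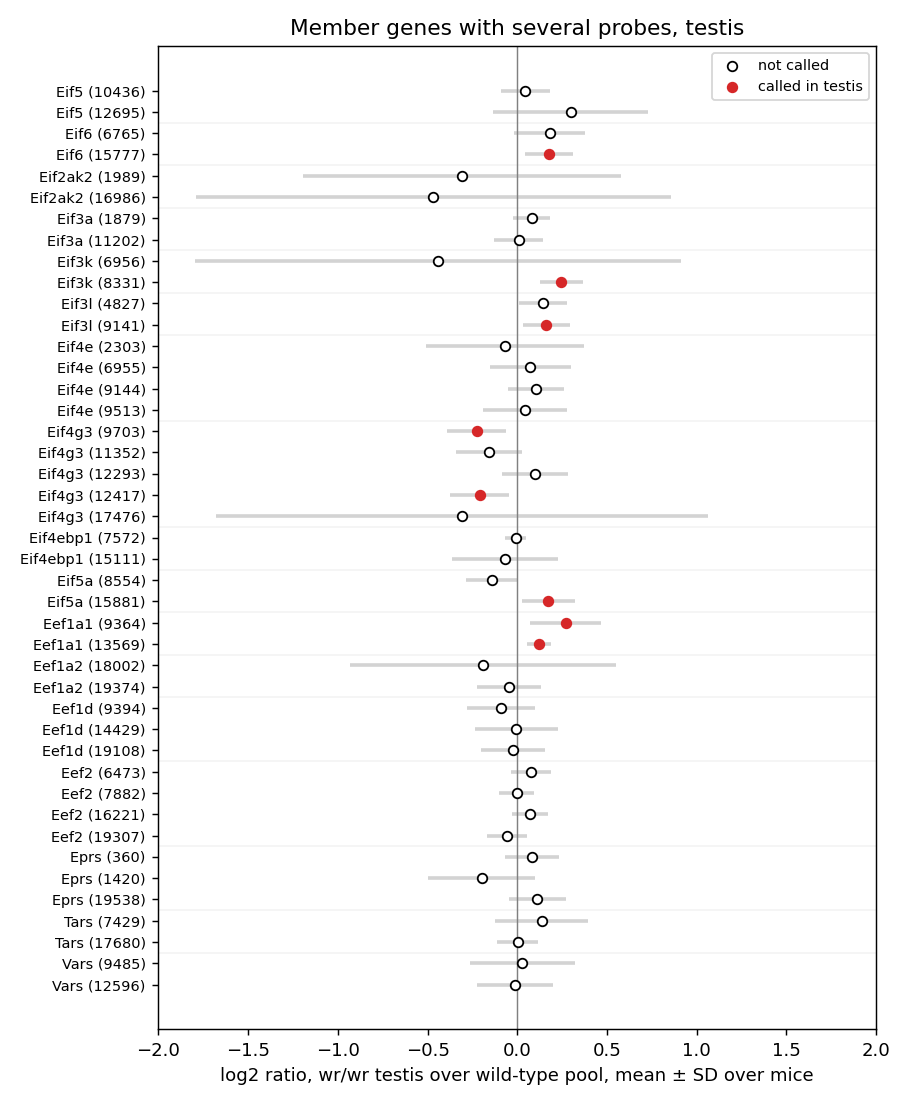
Mean ± SD over the testis mice (x axis, log2 ratio of wr/wr over the wild-type pool) of each probe of the 17 member genes with several probes. Filled points were called and open points were not. Eef1a1 has both probes called, Eif4g3 has 2 of 5, Eif5a has probes on either side of 0, and the widest bars are those of Eif4g3 17476, Eif3k 6956 and Eif2ak2 16986, each with 1 mouse far from the rest.

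Eif5a, which helps ribosomes through difficult peptide bonds, gave opposite readings from its 2 probes. Probe 15881 ran from 0.00200 to 0.39 with a median of 0.17, and was called at 0.17 ± 0.15 (limma adjusted p = 0.0371), with Cy5 and Cy3 means of 0.30 and 0.0442. Probe 8554 was below 0 in 9 mice at -0.14 ± 0.14 and missed the threshold (limma adjusted p = 0.0661), with means of 0.0110 and -0.30.

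In elongation, 4 of 15 probes were called higher and 0 lower, and all 4 were parts of eEF1. Eef1b2, the exchange factor of eEF1A, had the highest mean of all called members. It ran from 0.057 to 0.54 with a median of 0.29, above 0 in 10 of 10 mice, and its mean was 0.29 ± 0.18 (limma adjusted p = 0.0161). Eef1a1, which delivers the charged tRNA, had both of its probes called, the only one of the 17 genes with several probes where that was so. With the probes of each gene averaged before the fit, 16 of the 60 genes were called higher and 1, Eif5b, lower. In that fit 11.8% of everything tested was called, in either direction. Of the Eef1a1 probes, 9364 ran from -0.046 to 0.49 around a median of 0.26 (mean 0.27 ± 0.20, limma adjusted p = 0.0221). Probe 13569 ran from 0.0295 to 0.26 around a median of 0.13 (mean 0.12 ± 0.069, limma adjusted p = 0.0267). On both, nearly all of the difference lay in Cy5 (0.48 and 0.23), with 0.060 and 0.00725 in Cy3. Eef1g, which anchors the exchange complex, was just inside the threshold at 0.15 ± 0.14 (limma adjusted p = 0.0491).

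The other elongation members did not pass. Eef1d, the delta subunit of the same complex, was at -0.090, -0.00435 and -0.0221 on its 3 probes. Eef2, the translocase, had 4 probes, at 0.077, 0.072, -0.00193 and -0.057, and none was called. Eef1a2, the form of eEF1A found in muscle and neurons, was at -0.19 ± 0.74 and -0.0481 ± 0.18. The methyltransferases of eEF1A, Eef1akmt1 and Eef1aknmt, were at 0.089 and -0.0206.

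Of the 20 synthetase probes, 3 were called higher and 0 lower, 16 lay above 0, and their median log2 ratio was 0.081. Aars, which charges tRNA with alanine, ran from -0.0100 to 0.35 with a median of 0.19, above 0 in 9 of 10 mice. Its mean was 0.17 ± 0.11 (limma adjusted p = 0.0251), with 0.30 in Cy5 and 0.0353 in Cy3. Hars (histidine) ran from -0.12 to 0.55 with a median of 0.19 and a mean of 0.25 ± 0.23 (limma adjusted p = 0.0400), and its dyes gave 0.27 and 0.24. Qars (glutamine) ran from 0.0168 to 0.35 with a median of 0.096, above 0 in all mice, and a mean of 0.16 ± 0.13 (limma adjusted p = 0.0355). Hars and Qars are the more fragile of these calls. Of the 10 fits that each leave out 1 mouse, Hars was called in 2 and Qars in 3, against 7 for Aars.

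Aars and Hars are among the synthetases linked to hereditary neuropathy. Of the others so linked, Gars (glycine) was at 0.062 ± 0.25, Yars (tyrosine) at 0.14 ± 0.30, Kars (lysine) at 0.080 ± 0.097 and Mars1 (methionine) at -0.23 ± 0.66, and these were not called. Wars (tryptophan) was at 0.0234 ± 0.077. The bifunctional Eprs (glutamate and proline) had probes at 0.083, 0.11 and -0.20, none called. The other bearers of TGATGCAA stayed near 0 or spread widely: Iars (isoleucine) was at 0.0140 ± 0.13, and Tars (threonine) at 0.00225 ± 0.11 and 0.14 ± 0.26. Yars and the second Tars probe were each pulled by 1 mouse, at 0.86 in mouse 6069 and at 0.78 in mouse 5997.

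**Figure D4:**
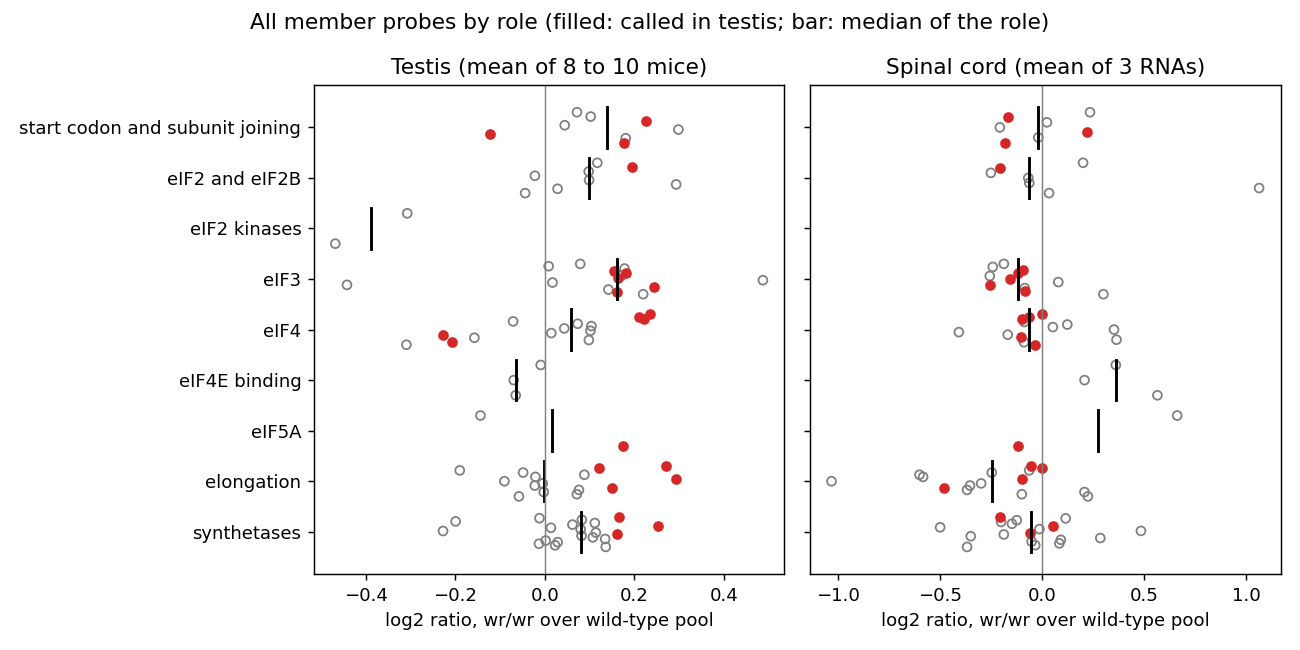
Mean log2 ratio of wr/wr over the wild-type pool (x axis, with a wider scale for cord) of every member probe with a test, by role (rows), in the testis at left and in the spinal cord at right. Filled points are the 22 probes called in the testis, open points the rest, and black bars the median of the role. The eIF3 and start codon groups lie mostly to the right of 0 in the testis, and most groups have a median left of 0 in the cord, where no probe was called.

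In the spinal cord no member could be called. Of the 86 probes 76 had values in both dyes in all 3 RNAs. None of the 76 passed the adjusted threshold, and neither did any of the 17055 probes tested (0%, limma with Benjamini-Hochberg, smallest adjusted p 0.5424), of which 1476 had an unadjusted p under 0.05. The members' median log2 ratio was -0.085, against -0.00317 over all probes, and 52 of 76 (68.4%) were below 0, against 50.5% of all. The medians by RNA were -0.0435 in pool1, -0.0442 in pool2 and -0.16 in mouse 5995. The dyes disagreed on the direction: the median was 0.055 with the wr/wr RNA in Cy5 and -0.23 with it in Cy3. Across all probes, the Cy5 and Cy3 arrays correlated below 0 in all 3 cord RNAs. Spearman's rho was -0.23 in pool1, -0.020 in pool2 and -0.061 in mouse 5995. For 51 of the 76 members the orientations had opposite signs, so that 32.9% had the same sign, against 45.7% of all cord probes.

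At an unadjusted p under 0.05, which 4.36% of all probes passed on the lower and 4.29% on the higher side, 4 members were lower and 4 higher. On the lower side, Iars had the smallest p, at -0.35 in pool1, -0.58 in pool2 and -0.57 in mouse 5995. Its mean was -0.50 ± 0.13 (SD, n = 3, limma unadjusted p = 0.0136), below 0 in both dyes. Yars was at -0.38, -0.19 and -0.55, with a mean of -0.37 ± 0.18. Eef2 read -0.49, -0.42 and -0.20 on probe 6473, with a mean of -0.37 ± 0.15, but its other 3 probes were at 0.21, -0.10 and 0.22. Eef1d was at -0.33, -1.65 and -1.12 on probe 9394, with a mean of -1.03 ± 0.66, composed of -3.23 in Cy5 and 1.16 in Cy3. Its probe 19108, next by p on this side and past 0.05, had a mean of -0.36 ± 0.18 and its probe 14429 of -0.30 ± 0.29. Eif3b, which followed, was at -0.22, -0.24 and -0.27, and its dyes were also opposed, at 0.34 and -0.83.

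On the higher side, Eif4ebp3, an eIF4E-binding repressor, was at 0.75 in pool1, 0.54 in pool2 and 0.40 in mouse 5995 (mean 0.56 ± 0.18, n = 3, limma unadjusted p = 0.0121). That mean joins -0.58 in Cy5 and 1.71 in Cy3. Eif2d, which can place an initiator tRNA without eIF2, was at 0.40, 1.64 and 1.14 (mean 1.06 ± 0.62) and above 0 in both dyes. Mars1 (methionine) was at 0.32, 0.70 and 0.43, with a mean of 0.48 ± 0.20 and dyes at 0.46 and 0.50. Eif4g3 on probe 11352 was at 0.35, 0.47 and 0.27, with a mean of 0.36 ± 0.10, whereas its other 3 tested probes were at -0.10, -0.091 and -0.037. The next by p on this side did not reach 0.05. Eif5a on probe 8554 was at 0.031, 0.81 and 1.14, with a mean of 0.66 ± 0.57, and Eif4e on probe 9513 at -0.0447, 0.56 and 0.54, with a mean of 0.35 ± 0.34.

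Markers of cord cell types moved in the same RNAs. The median log2 ratio was 0.65 over 8 tested microglial probes (0 below 0), 0.49 over 6 astrocyte probes (1 below 0), -0.58 over 5 oligodendrocyte probes (5 below 0), -0.17 over 8 neuronal probes (7 below 0) and -0.20 over 3 muscle probes (2 below 0). Their part in the members' ratios was not tested.

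The ratio itself differed between the organs for part of the machinery. In a fit over the 13 RNAs with 1 pooled spread, 16 of 76 members had a testis ratio above the cord ratio and 4 a testis ratio below it. Over all 17005 probes tested, 10.8% were called on the first side and 10.4% on the second. The median difference, testis minus cord, was 0.20 over the members and -0.00294 over all probes. The cord RNAs come from mice whose testes are in the same fit, and when every cord RNA was matched to its own animals' testes (replicate block) 0 members and 0 of all probes were called. The cord probes also varied more, with a median SD over RNAs of 0.26, against 0.17 in the testis, which the pooled spread does not allow for. When each organ was given its own weight, an alternative chosen after seeing the data, 7 members were called, 4 with the testis ratio higher and 3 with it lower, and 4.26% of all probes against 21.2% with equal weights. From the Cy5 arrays alone 5 members of 77 were called (8.86% of all probes), and from the Cy3 arrays alone 32 of 82 (24.9%). With arrays scaled to 1 spread 12 were called (7.39% of all), without the cord of mouse 5995 14 were (14.6%, 8 of the 14 with the testis higher), and without pool1 27 were (27.5%, 7 of the 27 with the testis lower).

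On the side of the testis were 3 groups of members. The first joined probes above 0 in the testis and below 0 in every cord RNA or all but 1. Eif3k (probe 8331) was at 0.25 ± 0.12 in the testis and at -0.0185, -0.25 and -0.50 in the cord RNAs, a difference of 0.50 ± 0.10 (SE, limma adjusted p = 0.00668). Aars was at 0.17 ± 0.11 in the testis and at -0.18, -0.28 and -0.16 in the cord, a difference of 0.37 ± 0.082 (limma adjusted p = 0.00892). Eef1b2 differed by 0.39, Eif1b by 0.40, Eif2b1 by 0.40, Eif6 (probe 15777) by 0.36, Eif3h by 0.32 and Eif5a (probe 15881) by 0.29, with at most 1 cord RNA above 0 in each. These 8 probes were also among those called higher in the testis alone. In the cord, the dyes were opposed for Aars (0.27 in Cy5, -0.68 in Cy3) and Eif5a (0.18 and -0.42). They were also opposed for Eef1b2 (0.040 and -0.24), Eif3h (0.057 and -0.38) and Eif6 (0.0012 and -0.36). Eif1b (-0.098 in Cy5, -0.24 in Cy3) and Eif2b1 (-0.096 and -0.32) were below 0 in both. Eif3k was close to 0 in Cy5 (-0.004) and at -0.51 in Cy3.

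In the second group the testis probe was not called on its own and the cord values were low. Iars was at 0.0140 ± 0.13 in the testis and at -0.50 ± 0.13 in the cord, a difference of 0.52 ± 0.095 (SE, limma adjusted p = 0.00425). Eef2 on probe 6473 differed by 0.45 (limma adjusted p = 0.00571), while its other 3 probes were not called, at -0.21, 0.17 and -0.28. Sars (serine) was at 0.11 ± 0.13 in the testis and at -0.28, -0.11 and -0.66 in the cord, and differed by 0.46. Eif4e2, a cap-binding relative of eIF4E, differed by 0.51, Eef1akmt1 by 0.69 and Eif2b2 by 0.35. Eif3b differed by 0.42, but by -0.099 on the Cy5 arrays alone. In the cord, the dyes were also opposed for Sars (0.0875 in Cy5, -0.79 in Cy3) and Eif2b2 (0.0605 and -0.57). In Eif4e2 and Eef1akmt1 a single cord RNA was far below the others, at -0.96 in pool2 and at -1.22 in mouse 5995.

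The last was Eef1d on probe 9394, with the greatest difference of the 16 at 0.94 ± 0.20 (SE, limma adjusted p = 0.00851). It turned to -1.21 when only the Cy3 arrays were used.

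The 4 probes on the other side were higher in the cord. Eif4ebp3 was at -0.065 ± 0.16 in the testis and 0.56 ± 0.18 in the cord, a difference of -0.63 ± 0.11 (SE, limma adjusted p = 0.00382), which was 0.49 on the Cy5 arrays alone. Eif2d differed by -1.03 ± 0.20 (limma adjusted p = 0.00528), with 0.0288 ± 0.20 in the testis and 1.06 ± 0.62 in the cord. Eif5a (probe 8554) differed by -0.80 and Eif4g3 (probe 11352) by -0.52, and in both genes another probe did not follow. The 2 Eif5a probes were called on opposite sides.

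**Figure D5:**
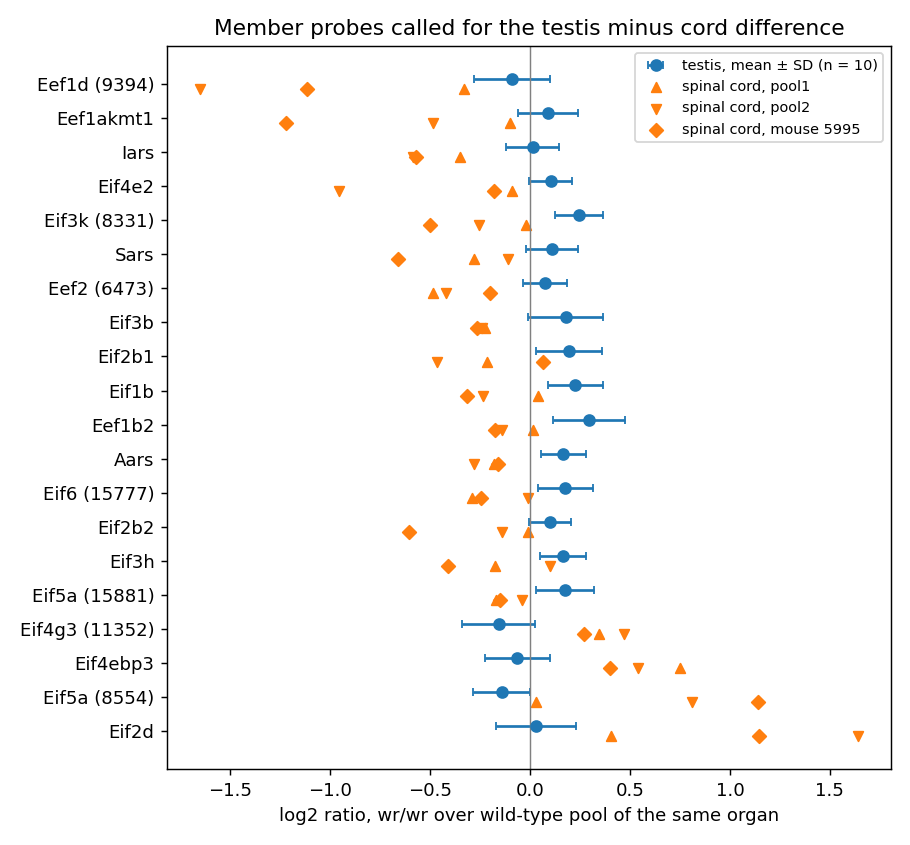
Log2 ratio of wr/wr over the wild-type pool of the same organ (x axis) for the 20 member probes called for the testis minus cord difference (rows, ordered by that difference). Circles with bars are the testis mean ± SD over 10 mice, and triangles and diamonds are the 3 cord RNAs. For Aars, Iars, Eef2 (6473) and Eif3b the cord RNAs lie close together and left of the testis mean, while for Eef1d (9394), Eef1akmt1 and Eif2d they are spread widely. Each cord point averages both dyes, which were opposed in sign for Aars and Eif3b.

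Other genes of protein synthesis were read on the same arrays, where 7.28% of all testis probes were called higher and 5.06% lower. Of 85 probes named for ribosomal proteins of either subunit (Rpl or Rps, with Rps19bp1, a binding partner, taken in by its symbol), 46 were called higher in the testis and 0 lower, with a median log2 ratio of 0.22. The 5 with the smallest p were Rpl8 (probe 15392) at 0.29, Rps14 (probe 19645) at 0.37, Rpl13a at 0.32, Rpl14 at 0.32 and Rpl32 at 0.33. In the cord the median of the 76 tested was -0.17, and 64 of them (84.2%) were below 0, against 50.5% of all cord probes. That cord median was 0.0217 with the wr/wr RNA in Cy5 and -0.44 with it in Cy3. Like the members, the ribosomal proteins had a higher median in Cy5 (0.30) than in Cy3 (0.13) in the testis.

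Termination factors and poly(A)-binding partners had 2 of 13 probes called higher and 0 lower in the testis: Gspt1, the release factor eRF3, was called on 1 of its 4 probes (0.16) and Paip2, which restrains the poly(A)-binding protein, was at 0.19. Of 9 probes for synthetase partners and synthetases outside the naming rule, 2 were called higher and 1 lower. Aimp1, a scaffold of the multisynthetase complex, was at 0.30 ± 0.18 and Farsb, a subunit of the phenylalanine enzyme, at 0.16 ± 0.092. Both were called and above 0 in all 10 mice. The lower one was 1 of 6 probes of Iars2 (-0.12), a mitochondrial enzyme. Of 4 further mitochondrial synthetase probes 1 was lower, Sars2 at -0.15, and of 8 probes of mitochondrial factors 1 was higher, the elongation factor Tufm at 0.17. None of 18 probes of mTOR signalling was called, with a median of 0.00500.

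For the integrated stress response, 2 of 20 probes were called higher, against 7.28% of all testis probes, and 0 lower, with a median of 0.0382. Asns, asparagine synthetase, a target of ATF4, was at 0.33 ± 0.25 and above 0 in 9 of 10 mice. Atf4 was at 0.26 ± 0.18 on probe 18438, above 0 in all mice, and at -0.065 ± 0.21 on probe 11715, which was not called. Of 9 probes of translation regulators, 1 was higher and 1 lower: the helicase Ddx3x was higher at 0.35 ± 0.29 and the CPE-binding protein Cpeb4 lower at -0.33 ± 0.31.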

How the data were processed

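The authors' deposited table holds 1 log2 ratio per probe and array. The log base was read from the values, and no source used here gives their background correction, normalization or filters. No intensities were used. RNA was column-purified, and 20 µg were reverse transcribed and coupled to Cy3 or Cy5, per the labels' protocols, which give 6 control animals per pool where the sample labels give 10. Per array, between 19070 and 20189 probes had a value in the testis and between 18338 and 20034 in the cord, and the number of RNAs limits the precision.

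Arrays were centred on their medians. For each RNA the Cy5 and Cy3 means were averaged, so that 1 RNA is 1 replicate. Probes needed both dyes in at least 8 testis mice or all 3 cord RNAs. Ratios were tested against 0, and testis against cord, with limma 3.58.1 (lmFit and eBayes in R 4.3.3), Benjamini-Hochberg over all probes tested and a threshold of 0.05. The scripts were tested on simulated data. Values over 10 in size were kept, 1472 of 991039, of which 6 fell on members.

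Probe names are those of the platform annotation, under which 14030 probes have 1 gene, 5 several and 6320 none. All 86 member probes matched a RefSeq gene by Entrez ID. The members, lists and named genes were chosen with earlier results of these data known: every probe called in the testis or for the organ difference, the 6 smallest p in each direction in the cord, a list of well-known members, and the called genes of the other lists. Alternatives were centring, scaling, large values, single dyes, averaging of probes, eBayes options, left-out RNAs and pairing. Pairing comes from the labels, since the cord mice are testis mice. The deviations of a cord RNA and of its own mice's testes correlated at r = -0.00867 (pool1), 0.00547 (pool2) and 0.00842 (mouse 5995).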

Additional observations from a re-analysis of the deposited data

Results flagged for a closer look

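In 16 member probes a single testis mouse stood far from the other mice with a value. Dixon's criterion was used, which chance meets in about 1 in 20 groups, and the share of all probes meeting it is not given here. None of the 16 had been called in the testis, while Eef2 probe 6473 and Eif4ebp3 were called for testis minus cord. The values far below the rest were Eif3k probe 6956 in mouse 6335 (-4.23), Eif4g3 probe 17476 in mouse 5907 (-4.19), Eif2ak2 probe 16986 in mouse 6493 (-3.98), Mars1 in mouse 6065 (-1.91), Eif4e probe 2303 in mouse 6069 (-1.24), Eif3m in mouse 6065 (-0.48), Eif4ebp3 in mouse 6069 (-0.47), Eef1d probe 19108 in mouse 5995 (-0.41) and Eif4g2 in mouse 5905 (-0.15). Those far above were Eif3i in mouse 6163 (4.18), Eif5 probe 12695 in mouse 5906 (1.40), Yars in mouse 6069 (0.86), Tars probe 7429 in mouse 5997 (0.78), Vars probe 9485 in mouse 6065 (0.71), Eif3j1 in mouse 5906 (0.70) and Eef2 probe 6473 in mouse 6065 (0.36). Without that mouse, the mean of Eif3k probe 6956 was -0.0206, that of Eif4g3 probe 17476 was 0.12, that of Eif2ak2 probe 16986 was -0.077 and that of Eif3i was 0.0258. Each of these 4 probes holds 1 array value over 10 in size in the testis.

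The testis and cord ratios of 20 of 76 members differed by the test of the difference (testis minus cord), which called 21.2% of all probes tested. With each cord RNA matched to its own animals' testes, 0 members were called. The testis ratio was higher by 0.94 for Eef1d probe 9394, 0.69 for Eef1akmt1, 0.52 for Iars, 0.51 for Eif4e2, 0.50 for Eif3k probe 8331, 0.46 for Sars, 0.45 for Eef2 probe 6473, 0.42 for Eif3b, 0.40 for Eif2b1, 0.40 for Eif1b, 0.39 for Eef1b2, 0.37 for Aars, 0.36 for Eif6 probe 15777, 0.35 for Eif2b2, 0.32 for Eif3h and 0.29 for Eif5a probe 15881. The difference was -1.03 for Eif2d, -0.80 for Eif5a probe 8554, -0.63 for Eif4ebp3 and -0.52 for Eif4g3 probe 11352.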

How the results depend on the processing

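Counts of called members depended on the arrays used. In the testis, 22 were called, and 3 to 21 without single mice (3 to 19 higher, 0 to 4 lower): 3 without 6493, 7 without 5907, 8 without 6069, 10 without 6335, 13 without 5995 and 14 without 6163. The Cy3 arrays alone gave 7 (3 higher), and the Cy5 arrays alone 21 with 0 lower. With probes averaged per gene, 1 gene was lower. The testis median of 0.080 stayed between 0.067 and 0.087 without single mice. In the cord 0 were called in every setting run, and the median of -0.085 was 0.0533 on the Cy5 arrays alone, -0.22 on the Cy3 arrays alone and -0.10 to -0.0402 without single RNAs. For testis minus cord, 20 were called (16 with the testis higher, 4 lower), against 12 (8 higher) with arrays scaled to 1 median absolute deviation, 5 (5 higher, 0 lower) on the Cy5 arrays and 32 (26 higher) on the Cy3 arrays, which hold 4 and 16 of the 20, 2 lower with probes averaged per gene, 7 (4 higher) with tissue weights, chosen after seeing the data, and 0 (0 higher, 0 lower) with the replicate block. Leaving out single RNAs gave 14 to 27 (8 to 20 higher, 4 to 7 lower), with 8 higher without the cord of mouse 5995 and 7 lower without pool1. With fewer RNAs or arrays a fit also has less power, and otherwise the cause was not tested. The sign turned, on the Cy5 arrays, for Eif5b in the testis (0.0236) and for the differences of Eif3b (-0.099) and Eif4ebp3 (0.49), and on the Cy3 arrays for Eif3l probe 9141 in the testis (-0.0507) and the difference of Eef1d probe 9394 (-1.21). Eif3k probe 8331 kept its testis call in the 18 settings with single probes, but averaged with probe 6956 the gene read -0.096 (limma adjusted p = 0.7644). The unknown normalization, direction and signal over background limit all of these ratios.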
